A study of Mus musculus with 2 samples.

Results

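Mir21a, Mir132 and Mir212 are 3 of the 2202 miRNA genes counted in the mouse adrenal gland, and they were chosen by symbol as miRNAs reported to regulate or to follow steroid output driven by ACTH. The rule that picks them uses symbols and no measured value, although it was set with earlier results of these data known. MicroRNA sequencing had been done on total RNA of whole adrenal gland from C57BL/6J mice, an inbred strain supplied by The Jackson Laboratory, with inserts below 30 nt. There was 1 group, wild-type tissue with no treatment named, with 2 biological replicates, whose records name the same donor, so the spread between them may be technical. A free-text label gives the tissue as male, the field for sex as not collected, and age and stage as unknown. The labels name no ACTH or other agent, so the values are levels and not responses, in a tissue that mixes cortex, medulla, vessels and blood. In such a mixture, fewer cells of a type and less RNA per cell cannot be told apart.

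ACTH is released by the pituitary and controls steroid synthesis in the adrenal cortex. It acts through its receptor on cortical cells, which raises cyclic AMP and activates protein kinase A. A miRNA is cut from a hairpin precursor, and the bases near its 5′ end, the seed, pair with target mRNAs and lower their output. Mir21a makes miR-21, a broadly expressed miRNA that represses Pdcd4, an inhibitor of translation, and that was reported in human adrenocortical cells to rise with angiotensin II and to raise aldosterone. Mir132 and Mir212 make miR-132 and miR-212, known in rat neurons as targets of the cyclic AMP-responsive factor CREB. In rat adrenal both were reported to rise after ACTH, and in mouse adrenal cells miR-132 was reported to lower StAR, the protein that moves cholesterol into mitochondria for steroid synthesis.

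The mature sequences, taken from RefSeq (GRCm38.p6) and written 5′ to 3′ with bases 2 to 8 in capitals, are shown to set out which members share a seed.
mmu-miR-132-3p: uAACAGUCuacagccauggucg
mmu-miR-212-3p: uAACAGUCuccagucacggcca
mmu-miR-132-5p: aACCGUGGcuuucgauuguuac
mmu-miR-212-5p: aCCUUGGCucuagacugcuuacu
mmu-miR-21a-5p: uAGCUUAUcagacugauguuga
mmu-miR-21a-3p: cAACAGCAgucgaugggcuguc
mmu-miR-21c: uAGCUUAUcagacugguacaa

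The 3p arms of Mir132 and Mir212 have the same seed, and among 1738 mature mouse miRNAs in the RefSeq table no other one has it. Counted from 1 at the 5′ end, miR-132-3p and miR-212-3p are identical over their first 9 bases and at 17 of 22 positions, and they differ by A10C, C14U, U17C, U20C and G22A, with the base of miR-132-3p written first. The 5p arms of these hairpins have seeds that differ from each other and that occur in no other mature miRNA of the table. The seed of miR-21a-5p is also that of miR-21c, which is identical to it over the first 15 bases. Mir21c had 0 counts in both replicates, which allows up to 0.292 CPM in replicate 1 and 0.851 CPM in replicate 2 (3 counts as the limit, for counting error only). CPM here is a count scaled to a library of 1000000 assigned miRNA counts. Of the 2 genes with this seed, Mir21a therefore held every uniquely placed read.

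All 3 genes lie on chromosome 11 of mm10, in 2 places 11.4 megabases apart. Mir212 (ENSMUSG00000065590.1) lies on the plus strand from 75173388 to 75173478 and Mir132 (ENSMUSG00000065537.2) from 75173682 to 75173747, with 203 bp between the hairpins. Both stand in the first intron, between exon 1 and exon 2, of the noncoding gene 1700016P03Rik on the same strand. Ovca2 overlaps the 3′ part of that gene on the minus strand. Mir21a (ENSMUSG00000065455.1) lies on the minus strand from 86584067 to 86584158. It stands in exon 12 of Vmp1, a gene of autophagy and membrane traffic, within the part annotated as UTR, and no other miRNA gene is annotated within 10 kb of it. The hairpins of the pair, which give the reads counted for each gene, are printed with both mature arms in capitals.
Mir132 hairpin: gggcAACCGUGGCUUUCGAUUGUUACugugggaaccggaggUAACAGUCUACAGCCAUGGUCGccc
Mir212 hairpin: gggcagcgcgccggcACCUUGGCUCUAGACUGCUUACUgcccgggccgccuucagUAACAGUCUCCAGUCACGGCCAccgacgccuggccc

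The tables give 1 count per hairpin, with both arms together, so the share of reads with the common seed is not known. None of the members shares a stretch of 20 nt with another miRNA gene. The longest stretch shared was 15 nt for Mir21a (with Mir21c), 11 nt for Mir132 and 12 nt for Mir212, while 1084 of the 2202 genes share 20 nt or more and can lose reads to a near-identical copy. No read was counted on the strand opposite any member in either replicate.

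Replicate 1 held 10263894 counts assigned to miRNA genes and replicate 2 held 3525666, and unmapped reads made up 13.8% and 41.4% of the reads. The deposited tables hold miRNA genes alone, so transcripts that define cortical cells were not analysed here. Among miRNAs fixed as markers, neuroendocrine Mir375, Mir7-1, Mir7-2 and Mir7b came to 73420.4 CPM in the first library and 80086 CPM in the second, and endothelial Mir126a stood at 89916 and 95595 CPM. The list of liver and muscle miRNAs summed to 106 and 100.1 CPM, of which liver Mir122 gave 103.6 and 97.6 CPM. Muscle Mir206 had 2.14 and 2.55 CPM, and the other 4 of 6 stood at 0, all of them genes with near-identical copies.

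Mir21a was the most abundant member, followed by Mir132 and then Mir212, in both replicates. Mir21a had 53504 counts in replicate 1 and 23532 in replicate 2, or 5213 CPM (exact Poisson 95% interval 5169 to 5257) and 6674.5 CPM (6589.5 to 6760), with a mean of 5944 ± 1034 CPM (SD, n = 2). Mir132 had 13367 and 2374 counts, or 1302 CPM (1280 to 1325) and 673 CPM (646.5 to 701), with a mean of 988 ± 445 CPM. Mir212 had 650 and 148 counts, or 63.3 CPM (58.5 to 68.4) and 42.0 CPM (35.5 to 49.3), with a mean of 52.7 ± 15.1 CPM. The ranges of the 3 genes over the replicates did not overlap. Their order is thus the same in both libraries, although the sampling of different RNA sequences by the library protocol was not tested. Poisson and binomial intervals here describe counting error alone, because copies made by PCR were counted as reads.

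Together, the members took 0.698% ± 0.057 of assigned counts (SD, n = 2), with 0.658% in replicate 1 (Clopper-Pearson 95% interval 0.653% to 0.663%) and 0.739% in replicate 2 (0.730% to 0.748%). Mir21a made up 79.2% of the counts of the 3 members in replicate 1 and 90.3% in replicate 2. Its share rested on a higher Mir21a and on a lower Mir132 in replicate 2. The pair of Mir132 and Mir212 added up to 1366 CPM in replicate 1 and to 715 CPM in replicate 2.

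**Figure D1:**
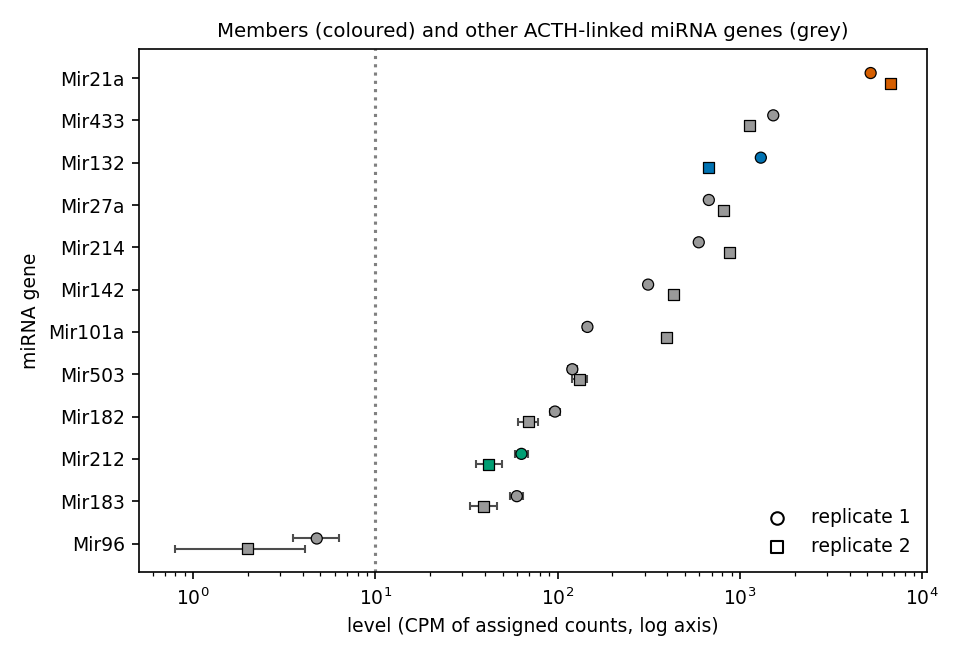
Level of each miRNA gene in CPM of assigned counts (log axis) in replicate 1 (circles) and replicate 2 (squares), with exact Poisson 95% intervals for counting error, for the 3 members in colour and 9 other miRNA genes reported to change with ACTH in grey. Mir21a stands above all others at 5213 and 6674.5 CPM, Mir132 lies at 1302 and 673 CPM, and Mir212 lies at 63.3 and 42.0 CPM, next to Mir183 and Mir182. The dotted line marks 10 CPM.

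By mean level Mir21a ranked 27th, Mir132 66th and Mir212 202nd of 2202 miRNA genes, of which 1435 had no count in either replicate. Multimapping reads were counted for no gene and made up 37.8% of mapped reads in replicate 1 and 38.8% in replicate 2. Genes with near-identical copies can therefore rank too low or stand at 0. All 3 members passed 10 CPM in both replicates, as did 267 genes in all, whose median level was 228 CPM. Mir21a and Mir132 thus stood above that median and Mir212 below it. Mir21a ranked 29th and 27th in the 2 replicates, and Mir212 191st and 207th. Mir132 moved most, from 57th in replicate 1 to 82nd in replicate 2.

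**Figure D2:**
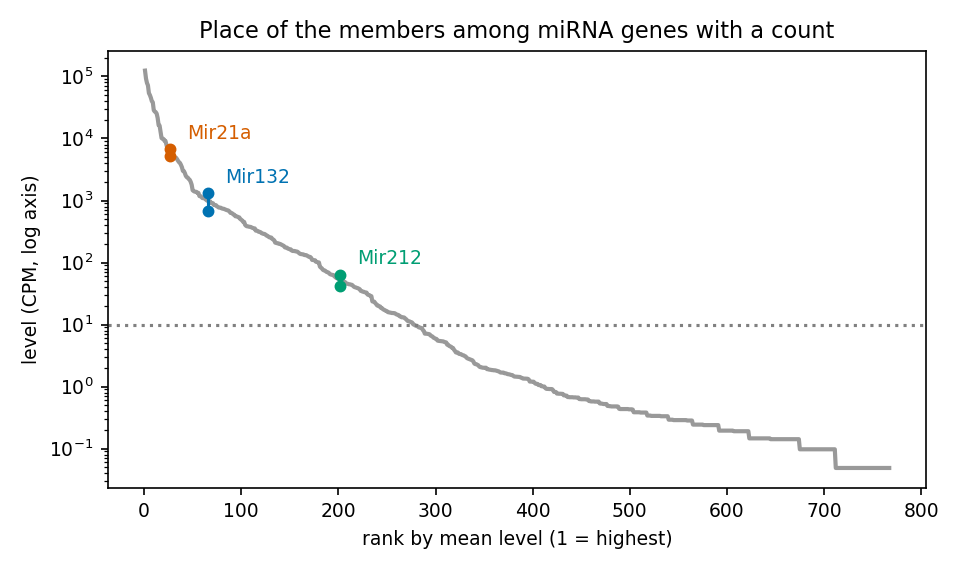
Mean level in CPM (log axis) of every miRNA gene with at least 1 count, in order of rank (grey line), with both replicates of each member as coloured points. Mir21a stands at rank 27, Mir132 at rank 66 and Mir212 at rank 202, and all lie above the dotted line at 10 CPM.

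The genes nearest to the members in level were taken by rank of mean CPM over the 2 libraries. Around Mir21a stood Mir30a (6904 ± 701 CPM, SD, n = 2) and Mir30d (6899 ± 232 CPM) above, and Mir151 (5842 ± 843 CPM) and Mir125a (5753 ± 1758 CPM) below. The range of Mir30d over the replicates, 6735 to 7064 CPM, lay above that of Mir21a, while the ranges of Mir30a, Mir151 and Mir125a overlapped it. Around Mir132 stood Mir337 (1022 ± 237 CPM), Mir15a (993 ± 313 CPM), Mir145a (980 ± 141 CPM) and Mir598 (969 ± 18.8 CPM), and all 4 ranges overlapped that of Mir132. Around Mir212 stood Mir539 (55.2 ± 0.18 CPM), Mir138-1 (53.4 ± 28.6 CPM), Mir450b (51.6 ± 15.5 CPM) and Mir5099 (50.9 ± 2.24 CPM), and all 4 ranges overlapped that of Mir212. The rank of Mir138-1 is uncertain, since it shares a stretch of 20 nt with Mir138-2. By these ranges, Mir132 and Mir212 cannot be ordered against their neighbours beyond the spread of the replicates. Within each library, Mir30a lay above Mir21a (6408 against 5213 CPM and 7400 against 6674.5 CPM). Mir212 lay above Mir450b in both libraries (63.33 against 62.55 CPM and 41.98 against 40.56 CPM), but their counting intervals overlapped. Every other neighbour of Mir132 and Mir212 changed order with its member between the libraries.

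Mir132 exceeded Mir212, its partner in the intron, in both libraries. There were 20.6 reads of Mir132 per read of Mir212 in replicate 1 (exact binomial 95% interval 19.0 to 22.3) and 16.0 in replicate 2 (13.6 to 19.1), a mean of 18.3 ± 3.20 (SD, n = 2). Mir212 thus gave 4.64% of the reads of the pair in replicate 1 and 5.87% in replicate 2. Depth cancels in this ratio, since both genes were counted in the same library. The ratio was 1.28 times as large in replicate 1 as in replicate 2, with a conditional exact 95% interval from 1.06 to 1.54. The mature products of both genes are 22 or 23 nt long, so the counts were compared without scaling by length.

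Unequal read counts were common among miRNA genes that lie close together. A set of 30 neighbouring pairs on 1 strand, at most 1000 bp apart, with both genes at 10 CPM or more in both replicates and without a shared stretch of 20 nt, was drawn up after the values of the pair had been seen, and some pairs have a gene in common. Chromosome 12 gave more of these pairs than any other chromosome, so the set is not spread evenly over the genome. The levels within the pairs differed from 1.04-fold to 130-fold, with a median of 5.40-fold. Mir132 over Mir212, at 18.8-fold by mean level, was exceeded by 6 of the 30 pairs. Mir322 over Mir503 was the widest pair, and Mir144 and Mir451a, also on chromosome 11, stood further apart than Mir132 and Mir212 as well. The log2 replicate ratios within a pair lay 0.39 apart at the median and 0.36 apart for Mir132 and Mir212, with 15 of the 30 pairs wider apart than theirs. In 16 of the 30 pairs, that of Mir132 and Mir212 among them, the log2 replicate ratios of both genes had the same sign, whether or not the genes passed the test described next.

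**Figure D3:**
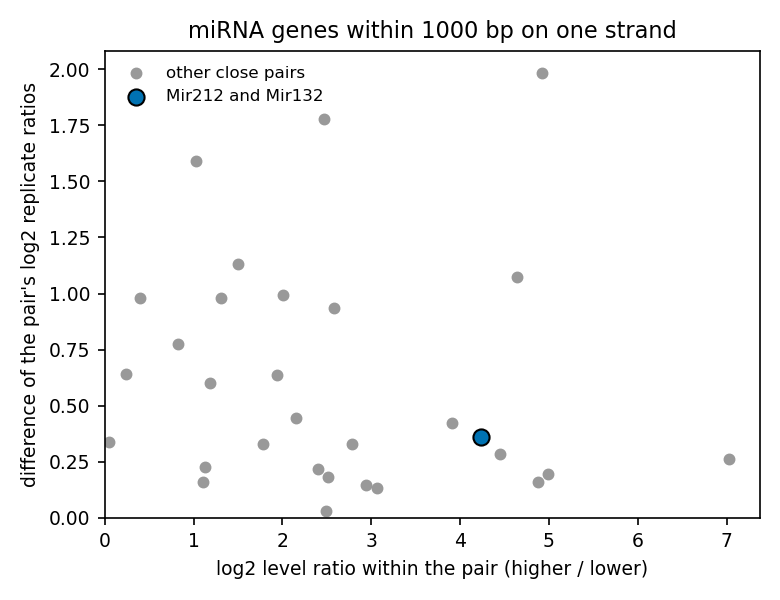
Each point is 1 of 30 pairs of neighbouring miRNA genes at most 1000 bp apart on 1 strand. The horizontal axis is the log2 ratio of the mean levels in the pair and the vertical axis is the absolute difference of the log2 replicate ratios of its genes. Mir212 and Mir132 (blue) lie at a level ratio of 4.23 and a difference of 0.36, with 6 pairs farther to the right.

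Each member differed between the replicates beyond the counting noise of reads, and not all in the same direction. The test takes reads as independent although copies made by PCR were counted, so its p-values do not cover noise from amplification. In an exact two-sided binomial test per gene with TMM scaling and Benjamini-Hochberg adjustment over 443 miRNA genes, 52.8% of the 443 passed, made up of 21.2% that were higher in replicate 2 and 31.6% that were higher in replicate 1. The 3 passing members are read against that share, which covers every gene with at least 10 counts over both replicates. A call says that 2 libraries differ, and most of the genes tested did. The share among genes as deep as the members was not computed. Mir21a was 1.27-fold higher in replicate 2 (log2 ratio of replicate 2 over replicate 1 0.34, 95% interval 0.32 to 0.36, exact binomial adjusted p = 4.5e-191). Mir132 was 1.96-fold higher in replicate 1 (log2 ratio -0.97, interval -1.03 to -0.91, exact binomial adjusted p = 1.11e-230). Mir212 was 1.52-fold higher in replicate 1 (log2 ratio -0.61, interval -0.88 to -0.35, exact binomial adjusted p = 3.81e-06). Over all genes tested the median log2 ratio was -0.17.

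The size of these differences sets the precision of the levels. Among the 277 genes whose mean reached 10 CPM, the median gene lay 1.32-fold apart between the replicates. Mir21a lay closer than that, with 42.6% of the genes at a smaller ratio. Mir212 had 72.6% and Mir132 86.6% of the genes at a smaller ratio, so the level of Mir132 was among the less repeatable ones. Reads of Mir21a per read of Mir132 were 4.003 in replicate 1 and 9.91 in replicate 2, which makes the ratio between these genes uncertain by more than 2-fold.

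**Figure D4:**
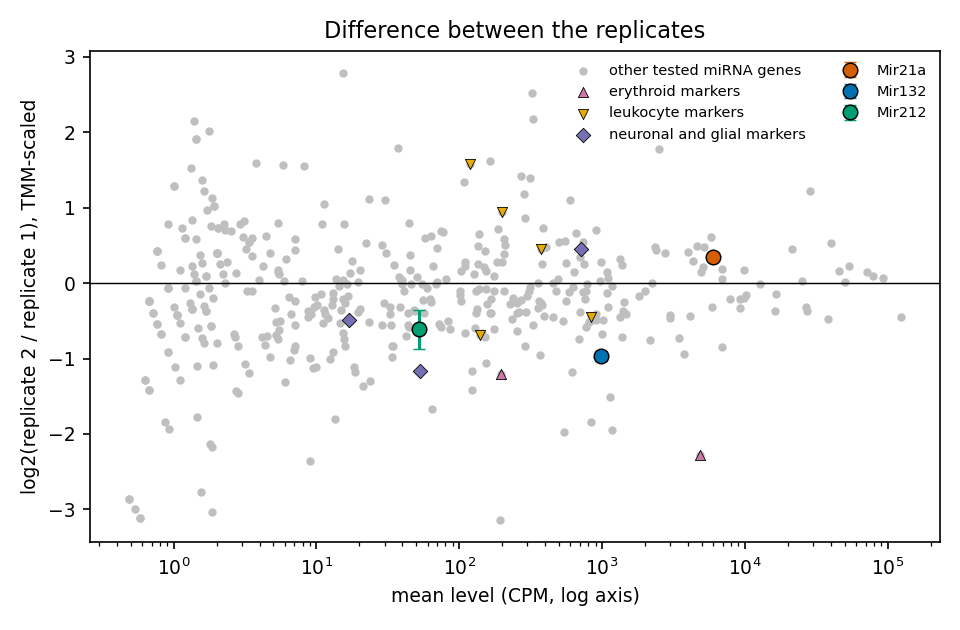
Log2 ratio of replicate 2 over replicate 1 with TMM scaling against mean level in CPM (log axis) for 443 tested miRNA genes (grey), with the members and 3 lists of marker miRNAs in colour. Bars on the members are exact binomial 95% intervals. Mir21a lies at 0.34, Mir212 at -0.61 and Mir132 at -0.97, within the cloud of other genes, while erythroid Mir451a lies at -2.28.

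Markers of other cells also differed between the replicates. The erythroid miRNAs Mir451a and Mir144, both of red blood cells, summed to 8357 CPM in replicate 1 against 1804 CPM in replicate 2. Both passed the test as higher in replicate 1, as did Mir132, Mir212 and 31.6% of all genes tested. Of 5 leukocyte miRNAs, 3 were higher in replicate 2 and 2 in replicate 1, beside 21.2% and 31.6% of all genes tested. The leukocyte sums were 1648 and 1700 CPM. The 5 smooth muscle and fibroblast miRNAs summed to 26228 and 27512 CPM. Of the 4 that could be tested, 3 were higher in replicate 2, where 21.2% of all genes tested were. Among these 3, Mir143 was only 1.02-fold higher. Of 9 neuronal and glial miRNAs only 3 could be tested, and all 3 passed, beside 52.8% of all genes tested. Mir137 was higher in replicate 2. Mir138-1 and Mir138-2 were higher in replicate 1, but both are uncertain because they share a stretch of 20 nt. Mir138-2 barely passed, with an exact binomial adjusted p of 0.0494. The defining neuronal genes Mir124a-1, Mir124a-2, Mir124a-3, Mir9-1 and Mir9-2 had no count. This sets no limit, since their near-identical copies send reads to the multimapping line. The sums of that list were 689 and 870.5 CPM. Of the 4 neuroendocrine miRNAs, all passed, beside 52.8% of all genes tested. Mir375, which carries nearly all of their sum, was 1.10-fold higher in replicate 2 and Mir7-2 1.31-fold, while Mir7-1 (1.93-fold) and Mir7b (1.35-fold) were higher in replicate 1, and Mir7-1 and Mir7-2 are uncertain because they share a stretch of 20 nt. The part of these cells in the differences of the members was not tested.

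The other miRNAs reported to change with ACTH gave a mixed picture. The list holds 10 genes besides the members, and they took 0.372% of assigned counts on average, with 8 of 10 at 10 CPM or more in both replicates. The highest was Mir433, of the imprinted Dlk1-Dio3 region, at 1524 and 1127 CPM, the sole one above Mir132 by mean. The ranges of Mir27a (675 and 817 CPM) and Mir214 (595 and 881 CPM) over the replicates overlapped that of Mir132. The range of Mir183 (59.7 and 39.4 CPM) overlapped that of Mir212, Mir182 (96.7 and 69.2 CPM) lay above it, and Mir96, from the same cluster, had 49 and 7 counts. Mir101a, Mir142 and Mir503 ran from 120 to 434 CPM. Mir466b-1 had 0 counts, and since it shares a stretch of 20 nt with many other genes, its level cannot be read. Mir27a and Mir101a share such a stretch with Mir27b and Mir101b and are uncertain too. The median log2(CPM + 1) of the 10 genes was 7.54, beside 7.84 for all 267 detected genes and 0 for all 2202.

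Of these 10 genes, 9 could be tested between the replicates, and 8 of the 9 passed, beside 52.8% of the 443 genes tested. That share includes genes with as few as 10 counts, and no share was computed for genes as deep as most of these. Mir27a, Mir214, Mir101a and Mir142 were the 4 higher in replicate 2, Mir433, Mir182, Mir183 and Mir96 were the 4 higher in replicate 1, and Mir503 missed the threshold. Mir214 also counts among the smooth muscle and fibroblast markers and Mir142 among the leukocyte markers, so these calls repeat ones given above. With Mir132 and Mir212 added, the genes were set side by side by the direction reported with ACTH, a grouping made after the values had been seen and given without a test. Mir21a was left out of this grouping, since no direction with ACTH is cited for it here. It was higher in replicate 2 (log2 ratio 0.34). All 5 genes reported as raised by ACTH in rat adrenal (Mir132, Mir212, Mir96, Mir182 and Mir183) were higher in replicate 1. Their log2 ratios ran from -1.20 to -0.50. Of all genes tested, 31.6% were higher in replicate 1. These 5 genes stand at 2 places in the genome, since Mir183, Mir96 and Mir182 lie within 3820 bp of chromosome 6, so they are not 5 separate observations. The call of Mir96 was lost under other settings, with an exact binomial adjusted p of 0.0414 as reported and of 0.0575 with DESeq2 size factors.

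Of the 4 genes reported as lowered in rat, Mir27a (log2 ratio 0.26) and Mir214 (0.55) were higher in replicate 2. Mir503 (0.12) did not pass, with an exact binomial adjusted p of 0.222, and Mir466b-1, with 0 counts, was not tested. Of those reported as raised in mouse alone, Mir101a (1.42) and Mir142 (0.45) were higher in replicate 2 and Mir433 (-0.45) in replicate 1. Among all genes tested, 21.2% were higher in replicate 2 and 31.6% in replicate 1. The summed level of the genes raised in rat was 1527 CPM in the first library and 826 CPM in the second, and Mir132 made up the greater part of both. Hormone levels of the animals are not part of the files, and both replicates carry the same label, so no difference in ACTH between them is known.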

How the data were processed

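MicroRNA sequencing libraries of adrenal gland were analysed from 1 table of raw counts per replicate, as the authors deposited them. Build mm10 and annotation M21 are named per the file headers of the accompanying descriptions, and an adapter trimming protocol is linked per the labels. No source used here names the aligner or the counting tool. Of 3 unnamed count columns, the second was taken as counts on the strand of the gene, because it had the larger sum and no ambiguous read. The 4 summary lines were left out. All 2202 identifiers matched GENCODE M21.

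CPM used the sum of assigned counts. With 1 group, no condition was compared. Replicates were compared by an exact binomial test per gene with at least 10 counts, using TMM (edgeR 4.0.16, R 4.3.3) and a threshold of 0.05 on the adjusted p; log2 ratios had 0.5 counts added. DESeq2 1.42.0 size factors were an alternative. On simulated counts, the test called 1.23% of 243 genes set at a fold of 1 and 63% of 100 set at 1.5-fold. How the test behaves with reads copied by PCR was not tested. Python 3.11.15, scipy 1.17.1, pandas 2.3.3 and matplotlib 3.10.9 did the rest.

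The members and lists were chosen with earlier results of these data known, and the rule for the members itself uses gene symbols alone. Named are the members, genes with their seeds or within 10 kb, the 2 genes above and below each in mean CPM, the ACTH list and the marker lists.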

Additional observations from a re-analysis of the deposited data

How the results depend on the processing

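The direction and the call of all 3 members between the replicates were the same with total counts or DESeq2 size factors as scaling, with genes from 1 count on, and with counts without regard to strand. Their log2 ratios then ran from 0.34 to 0.42 for Mir21a, from -0.97 to -0.89 for Mir132 and from -0.61 to -0.53 for Mir212. The members had the same counts without regard to strand, so these settings changed only the scaling and the adjustment of p. The number of miRNA genes that differed was 234 as reported and 206 to 231 otherwise. With CPM over all mapped reads, multimapping ones included, Mir21a had 3396.5 CPM, Mir132 567 CPM and Mir212 30.2 CPM, and the 3 members took 0.399% of reads; the larger denominator sets these lower values. Without regard to strand the share was 0.797%, since reads of genes overlapping on opposite strands leave the sum. With 1 replicate left out, each value is that of the other replicate, so this is no separate check. Mir21a then ranged from 5213 to 6674.5 CPM, Mir132 from 673 to 1302 and Mir212 from 42.0 to 63.3. The share ranged from 0.658% to 0.739% and Mir132 per Mir212 from 16.0 to 20.6. Among the other ACTH-linked genes, Mir96 lost its call under 3 settings (adjusted p 0.0575 to 0.0708, exact binomial) and Mir503 gained one under 2 (0.0279 and 0.0488). With 148 counts of Mir212 in replicate 2, depth limits its level. No paired analysis was possible because the series has 1 group.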
